A study of Homo sapiens with 3 samples.

Results

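The genes described here are 10 genes that make, turn over or control polyamines, on arrays of MM1S, an established cell line from human multiple myeloma. They are ODC1, AMD1, SRM, SMS, OAZ2, AZIN1, SAT1, SAT2, PAOX and SMOX, named as a set with earlier results of these arrays known. Every probe set of the array that the platform annotation assigns to exactly 1 of these symbols was taken, which gave 21 probe sets for 10 of 19775 genes with such a probe set. A probe set is a group of short probes read out as 1 signal for a transcript. A further probe set shared between SAT1 and a second gene symbol was not used. Untreated cells (0 h in the labels), cells exposed to 10 nM FK866 during 6 h and cells exposed to the same dose during 24 h gave 1 array each. The labels give RPMI-1640 with serum, antibiotics and glutamine as the medium of the line, and FK866 inhibits NAMPT, the enzyme that recycles nicotinamide into NAD. With 1 array per condition of 1 cell line, no difference has a replicate check and no test was run. The groups may also differ in time in culture, which the labels do not give and which could not be told apart from treatment.

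Polyamines are small, positively charged molecules that bind nucleic acids and are needed for growth and translation. Ornithine decarboxylase makes putrescine, and spermidine synthase and spermine synthase lengthen it with aminopropyl groups from decarboxylated S-adenosylmethionine. Spermidine/spermine N1-acetyltransferase, the product of SAT1, acetylates spermidine and spermine, after which they are exported or oxidised back. Antizymes hold ornithine decarboxylase in check, and antizyme inhibitors release it. Levels of these enzymes also depend strongly on translation and protein turnover, which transcript arrays do not read.

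The outcome differed within the set, so the promoters of 3 members are shown: SAT1, whose transcript differed most between arrays, SAT2, its paralogue, and ODC1, which starts the pathway. Each is the 250 bases before the annotated gene start from RefSeq's GRCh38.p14, written 5′ to 3′ along the gene's strand, with capitals marking matches to the motifs named after the sequences.
SAT1, chrX:23782923-23783172, plus strand: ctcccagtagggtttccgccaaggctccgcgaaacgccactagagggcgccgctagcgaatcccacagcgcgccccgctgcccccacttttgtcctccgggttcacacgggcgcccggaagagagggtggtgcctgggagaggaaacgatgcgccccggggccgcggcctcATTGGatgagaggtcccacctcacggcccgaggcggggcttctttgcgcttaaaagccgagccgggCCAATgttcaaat
SAT2, chr17:7627877-7628126, minus strand: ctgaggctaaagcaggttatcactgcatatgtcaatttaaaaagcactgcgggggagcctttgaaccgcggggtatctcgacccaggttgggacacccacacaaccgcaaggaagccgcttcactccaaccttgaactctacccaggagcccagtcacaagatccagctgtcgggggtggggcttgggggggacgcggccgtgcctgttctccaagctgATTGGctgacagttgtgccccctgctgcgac
ODC1, chr2:10448328-10448577, minus strand: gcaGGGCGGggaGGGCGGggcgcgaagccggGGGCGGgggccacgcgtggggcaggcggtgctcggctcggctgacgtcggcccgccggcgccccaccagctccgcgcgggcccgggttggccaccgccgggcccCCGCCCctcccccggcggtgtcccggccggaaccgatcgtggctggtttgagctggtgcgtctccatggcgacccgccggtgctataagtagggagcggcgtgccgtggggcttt
The motifs searched on both strands were the CRE (TGACGTCA), the AP-1 site (TGANTCA), the E-box (CACGTG), the GC box (GGGCGG), the CCAAT box (CCAAT) and the TATA box (TATAAA), none of which overlapped another in these windows. The SAT1 window held a CCAAT box whose first base lay 13 bases before the start and another, on the reverse strand, at 79 bases. The SAT2 window held 1, on the reverse strand, at 31 bases. The ODC1 window held GC boxes at 247, 238, 219 and 115 bases, the last on the reverse strand. Of 35116 annotated windows of this length, 32.01% held a CCAAT box and 42.6% a GC box. The share of G and C was 66.4% for SAT1, 58.8% for SAT2 and 78.8% for ODC1. RefSeq's table gave windows for 7 of the 10 genes. By the exact letters, 0 of 7 held a CRE, which 1.65% of all windows hold, or a TATA box, which 10.7% hold. Near matches were not counted, such as tataagta and tgacgtcg in the ODC1 window, so the absence of such elements is not shown. Of the 7, 4 held a CCAAT box, among them SRM and SMS, and 5 a GC box. An AP-1 site was held by 1 of 7 and an E-box by 1 of 7, beside 6.57% and 6.34% of all windows. Such a match describes letters in a window and not a site in use.

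Signals are the deposited intensities on a linear scale in arbitrary units. Differences are log2 differences between 2 arrays after signals under 16 were set to 16, the floor. Probe sets whose mean log2 signal reached the overall median (controls left out), equal to a signal of 19.1, were kept, and each gene was read from its brightest kept probe set. All 10 genes were measured in this sense, through 19 of 21 probe sets. The median signal over all 54675 probe sets was 20.5, 17.4 and 17.2 for untreated, 6 h and 24 h cells, and the median of 11883 measured genes differed from untreated cells by -0.10 at 6 h and -0.13 at 24 h. The difference between 3' and 5' probe sets for GAPDH, a sign of RNA quality, was 0.24, 0.20 and 0.32 on the log2 scale in the untreated, 6 h and 24 h arrays, and for ACTB 2.25, 2.55 and 2.33. Of 11 plasma cell markers, 10 were measured, and the summed signal of all 11 lay between 48035 and 50459 on the 3 arrays. Within this list, at 24 h XBP1 was 1.73-fold lower than in untreated cells, CD38 1.36-fold lower and IRF4 1.90-fold higher. The summed signals of the B cell, T and NK cell, myeloid and stromal marker lists were 7.7 to 121.5, and 0 of 4, 1 of 6, 2 of 6 and 1 of 6 of their genes were measured. The measured ones were GNLY, CSF1R, ITGAM and COL1A1, with signals from 22.1 to 69.2. Of the unmeasured ones, CD3D, CD14 and COL3A1 were under the floor on every array. Others were slightly above it on some arrays, such as DCN and CD3E with 24.1 and 22.7 untreated and COL1A2 with 18.4 at 24 h. By brightest probe set, 3, 2 and 4 of 6 stromal markers were under the floor in the untreated, 6 h and 24 h arrays. NAMPT itself had a signal of 5473 untreated, 1248 at 6 h and 1423 at 24 h by its brightest probe set, and its 4 probe sets ranged from -2.43 to -0.88 at 6 h and from -2.27 to -0.39 at 24 h.

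SAT1 had nearly the same signal in untreated cells and at 6 h and a far lower one at 24 h, and no other member came near this difference. Its brightest probe set had signals of 2904 untreated, 2812 at 6 h and 375 at 24 h. The second had 2796, 2533 and 349, and the third 1249, 1029 and 112, in the same order of arrays. In each of the 3 probe sets the 24 h array was the low one, while the other arrays lay close together. By the brightest probe set SAT1 was 7.75-fold lower at 24 h than in untreated cells, a log2 difference of -2.95, and the other probe sets gave -3.00 and -3.48. Between the treated arrays it was 7.50-fold lower at 24 h than at 6 h, with probe sets from -3.20 to -2.86. The difference between 6 h and untreated cells was -0.05, with probe sets from -0.28 to -0.05.

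Disagreement among a gene's own probe sets is the only error these arrays give, and it covers probe error and isoforms rather than variation between cultures. For genes with a mean signal of 512 to 2048, the class of SAT1, its pooled SD was 0.34 at 6 h and 0.35 at 24 h. Relative to the median gene, SAT1 lay at 0.06 at 6 h and at -2.82 at 24 h. Of the 11883 genes, it was the 11th lowest at 24 h against untreated cells and the 5th lowest at 24 h against 6 h. These ranks describe a gene that was named with its difference known. All 3 SAT1 probe sets carry a suffix for probes that may match more than 1 transcript, so SAT1 has no value without such probe sets. A lower transcript signal in bulk RNA does not tell fewer expressing cells apart from less RNA per cell.

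**Figure D1:**
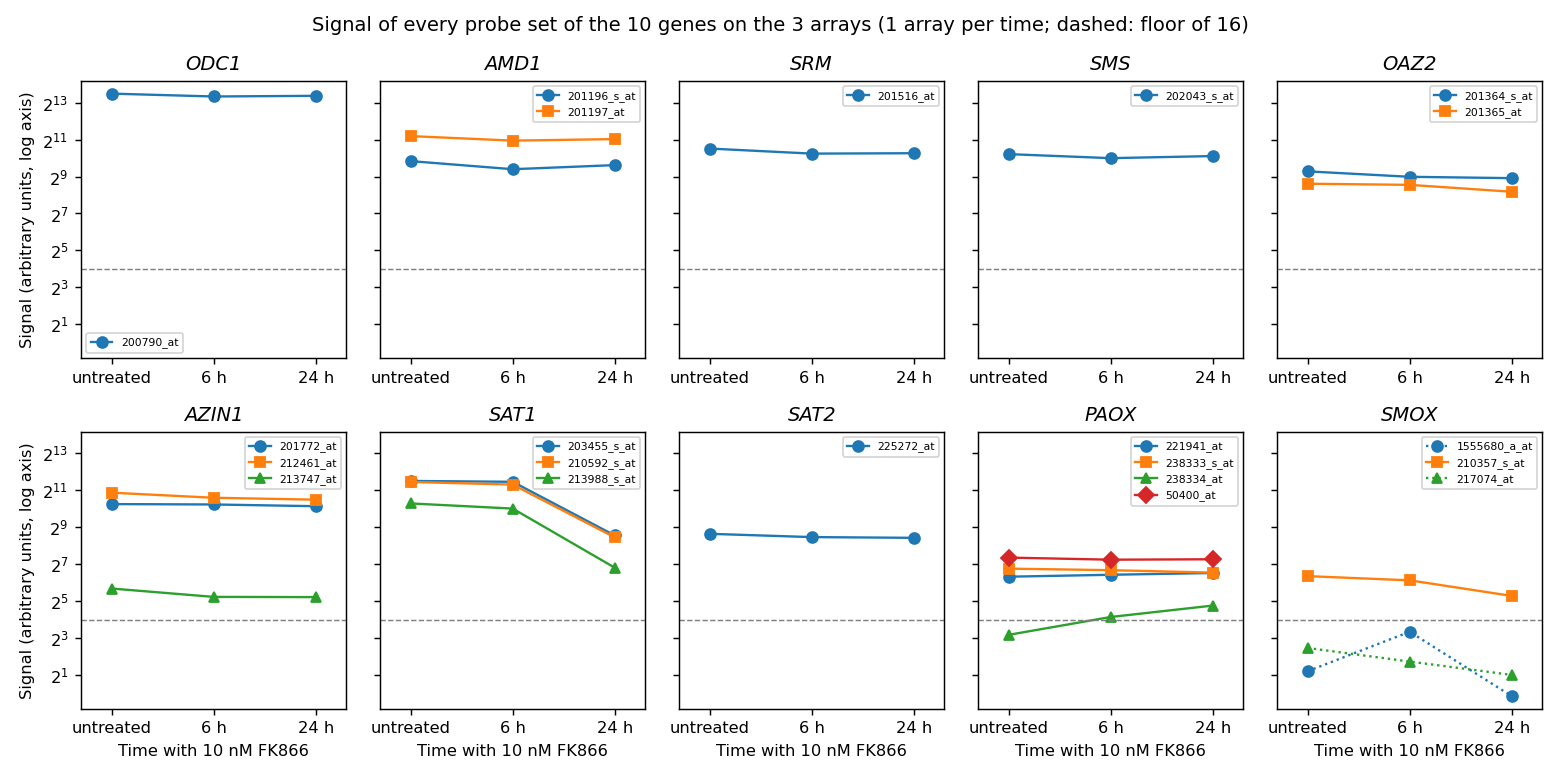
Signal of every probe set of the 10 genes (vertical axis, arbitrary units, log scale) in untreated cells and after 6 h and 24 h with FK866 (horizontal axis), with 1 array per time. Each line is a probe set, dotted lines are probe sets that were not kept and the dashed line is the floor of 16. All 3 SAT1 lines are lower at 24 h, and the lines of most other genes are close to level.

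SAT2, the paralogue of SAT1, whose product acetylates thialysine and acts little on polyamines, did not share this difference. Its 1 probe set had a signal of 399 untreated, 353 at 6 h and 343 at 24 h, so its treated arrays lay slightly below the untreated one. The log2 differences were -0.18 at 6 h and -0.22 at 24 h, or -0.08 and -0.09 relative to the median gene. At 24 h the acetyltransferase genes thus lay at -2.95 (SAT1) and -0.22 (SAT2) relative to untreated cells.

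The genes of polyamine synthesis differed little between arrays. ODC1, the ornithine decarboxylase, had a signal of 11502 untreated, 10333 at 6 h and 10596 at 24 h through its 1 probe set, and lay 1.11-fold and 1.09-fold below untreated at 6 h and 24 h. AMD1, which makes the aminopropyl donor, had 2336, 1971 and 2088 in that order, and 914, 674 and 786 by its second probe set. The 6 h array was the lowest for each of these 3 probe sets. AMD1 differed from untreated cells by -0.25 at 6 h and -0.16 at 24 h, with its second probe set at -0.44 and -0.22.

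SRM, the spermidine synthase, had a signal of 1464 untreated, 1211 at 6 h and 1229 at 24 h, and differed from untreated cells by -0.27 and -0.25. SMS, the spermine synthase, had 1188, 1021 and 1105, with differences of -0.22 and -0.10. For ODC1, AMD1, SRM and SMS alike the untreated array was the highest and the 6 h array the lowest, and the 24 h array exceeded the 6 h array by 0.02 to 0.11 on the log2 scale. These steps are smaller than the probe set spread of their signal classes, whose SD was 0.24 to 0.35 over the 3 comparisons. With each array scaled to a common median, ODC1 lay above its untreated level at both times, by 0.07 and 0.13, and SMS by 0.01 and 0.14, so the direction of these small differences was not fixed.

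Of the regulators, OAZ2, an antizyme that binds and inhibits ornithine decarboxylase, had a signal of 622 untreated, 507 at 6 h and 482 at 24 h, and 391, 375 and 289 by its second probe set. Its treated arrays lay below the untreated one in each probe set, by -0.29 and -0.06 at 6 h and by -0.37 and -0.44 at 24 h. AZIN1, the antizyme inhibitor that frees ornithine decarboxylase, had 1868, 1545 and 1438, with differences of -0.27 and -0.38. Its other probe sets gave -0.02 and -0.45 at 6 h, and -0.11 and -0.46 at 24 h, the larger from a dim probe set with signals of 51.2, 37.4 and 37.1. By their brightest probe sets, the antizyme and the antizyme inhibitor thus differed in the same direction and by similar amounts at 24 h. Relative to the median gene these were -0.24 for OAZ2 and -0.25 for AZIN1, smaller than the probe set SD of 0.35 in their class. With the arrays scaled to a common median, the brightest probe sets remained below untreated, by -0.12 for OAZ2 and -0.13 for AZIN1. The other probe sets were not read in that scaling. It shifts all signals of an array alike, by more than the -0.11 of the second AZIN1 probe set. That probe set would thus lie above untreated at 24 h, and those at -0.44 and -0.46 below.

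The oxidases differed from each other. SMOX, which oxidises spermine back to spermidine, had a signal of 81.5 untreated, 69.6 at 6 h and 38.8 at 24 h through its only kept probe set. The 24 h array was the low one, as for SAT1, but at a far dimmer level. SMOX was 2.10-fold lower at 24 h than in untreated cells, a log2 difference of -1.07, and differed by -0.23 at 6 h. Its class of genes, with mean signals of 32 to 128, had a probe set SD of 0.47 at 24 h. The difference was under 2-fold after quantile normalization (-0.82), with the arrays scaled to a common median (-0.82) and relative to the median gene (-0.94). With a floor of 64 it was -0.35, since the 24 h signal lies under that floor. The other SMOX probe sets were under the floor of 16 on every array and carry no value for the gene.

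PAOX, the peroxisomal oxidase of acetylated polyamines, lies downstream of the acetyltransferase. Its brightest probe set had a signal of 163 untreated, 151 at 6 h and 154 at 24 h, with differences of -0.11 and -0.09. The other 3 kept probe sets did not share a direction at 24 h. They had 108.0, 102.0 and 93.1, then 79.8, 85.8 and 91.7, then 9, 17.6 and 27.0, in the untreated, 6 h and 24 h arrays. Their 24 h differences were -0.21, 0.20 and, for the dimmest, at least 0.75, since its untreated signal lay under the floor. PAOX had no difference that its probe sets shared.

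**Figure D2:**
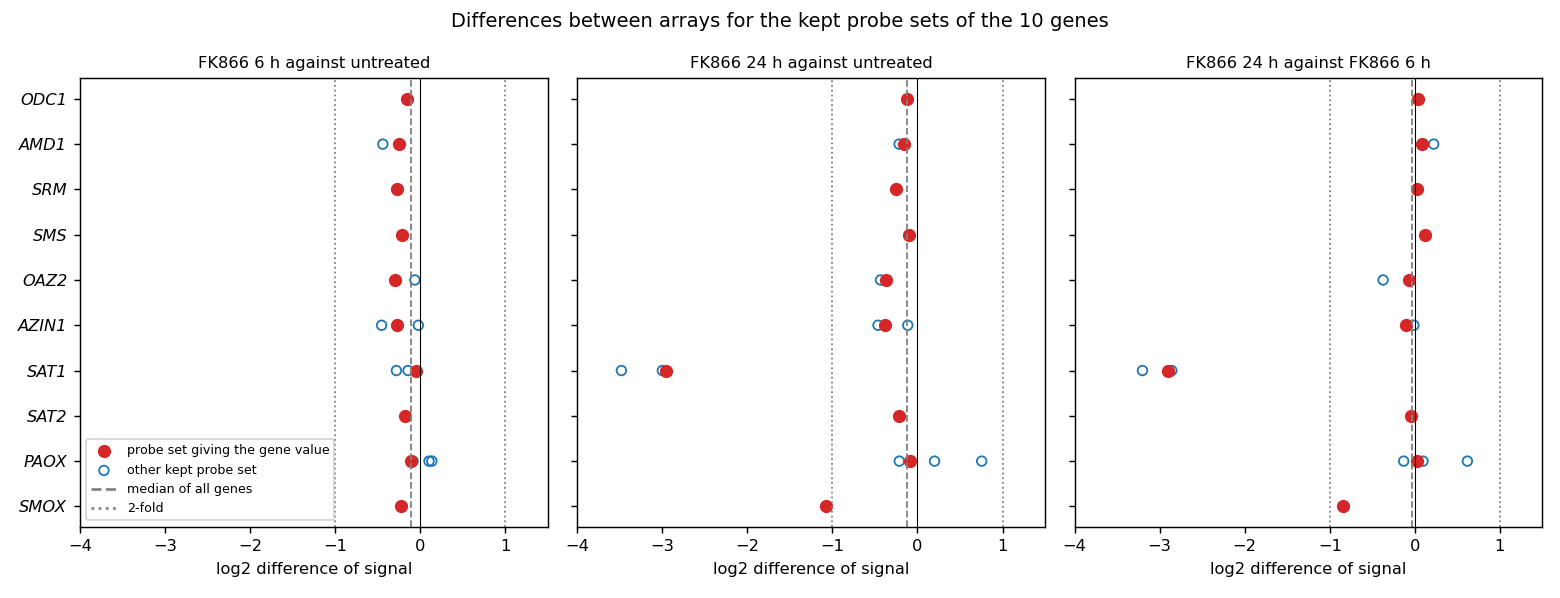
Log2 difference of signal (horizontal axis) for each kept probe set of the 10 genes (rows), at 6 h against untreated, at 24 h against untreated and at 24 h against 6 h. Filled points give the gene value, open points the other kept probe sets, the dashed line the median of all genes and the dotted lines a 2-fold difference. SAT1 lies between -3.48 and -2.95 at 24 h against untreated, and SMOX at -1.07.

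Counted over the set, 0 of 10 genes were at least 2-fold higher at 6 h and 0 at least 2-fold lower, where 1.44% of all measured genes were higher and 3.32% lower. At 24 h 2 of 10 were at least 2-fold lower, SAT1 and SMOX, and 0 were higher, against 4.17% lower and 1.14% higher among all measured genes. Between 24 h and 6 h, 1 of 10 was at least 2-fold lower, SAT1, and 0 were higher, against 1.84% and 1.09%. Nothing is read from these shares, because the set was named with these differences known. The shares among all genes moved with the scaling: after quantile normalization 2.22% were lower and 2.42% higher at 24 h, and 1.75% lower and 2.33% higher at 6 h. Higher genes made up 21.4% of those past 2-fold at 24 h and 30.2% at 6 h in the deposited values, against 52.2% and 57.2% after quantile normalization.

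The median difference of the 10 genes was -0.22 at 6 h, -0.24 at 24 h and -0.01 between the treated arrays, beside -0.10, -0.13 and -0.03 for all measured genes. At 6 h 10 of 10 lay below untreated, but 8 of 10 after quantile normalization and 4 of 10 with the arrays scaled to a common median. Relative to the median gene 9 of 10 were lower at 6 h under each of these 3 scalings, with SAT1 the exception in the deposited values. All 10 lay within 1 probe set SD of the median gene at 6 h, and 8 of 10 at 24 h, the exceptions being SAT1 and SMOX. The shares of all measured genes below untreated or within 1 SD are not given here, so nothing is read from these counts. Without SAT1 and SMOX, the other 8 genes had a median of -0.19 at 24 h and ranged from -0.38 to -0.09.

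The genes whose pair of differences from untreated cells at 6 h and 24 h lay closest to that of SAT1 were sought among the 10855 genes above the floor on all 3 arrays, by Euclidean distance on the log2 scale. HOPX, an atypical homeodomain protein, was the nearest at a distance of 0.28, with signals of 263 untreated, 255 at 6 h and 41.1 at 24 h. TESC, a calcium-binding protein, followed at 0.67 with 2266, 2549 and 188. FBXO32, a subunit of a ubiquitin ligase, lay at 0.80 with 988, 1170 and 76.1. The 24 h array was the low one for all 3 genes, while their 6 h and untreated signals were within 1.2-fold of each other. ANXA1, a phospholipid-binding protein, lay at 0.98 and PDLIM3, an actin-associated protein, also at 0.98, with 24 h differences of -1.99 and -2.41. The 6 h probe sets of FBXO32 ranged from -2.51 to 0.24, so its likeness rests on its brightest probe set. Those of PDLIM3 ranged from -2.74 to -0.87, the latter from its brightest. That probe set had signals of 2358 untreated, 1292 at 6 h and 443 at 24 h. PDLIM3 was thus already lower at 6 h, unlike SAT1. Likeness over 3 arrays describes these arrays only, and the 2 differences share the untreated array.

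A mean log2 signal at least that of SAT1 was reached by 1597 genes, SAT1 included. Of these, 17 were at least 2-fold lower at 24 h, or 1.06%, SAT1 among them, and 12 at 6 h, or 0.75%. The mean of SAT1 includes its low 24 h array.

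**Figure D3:**
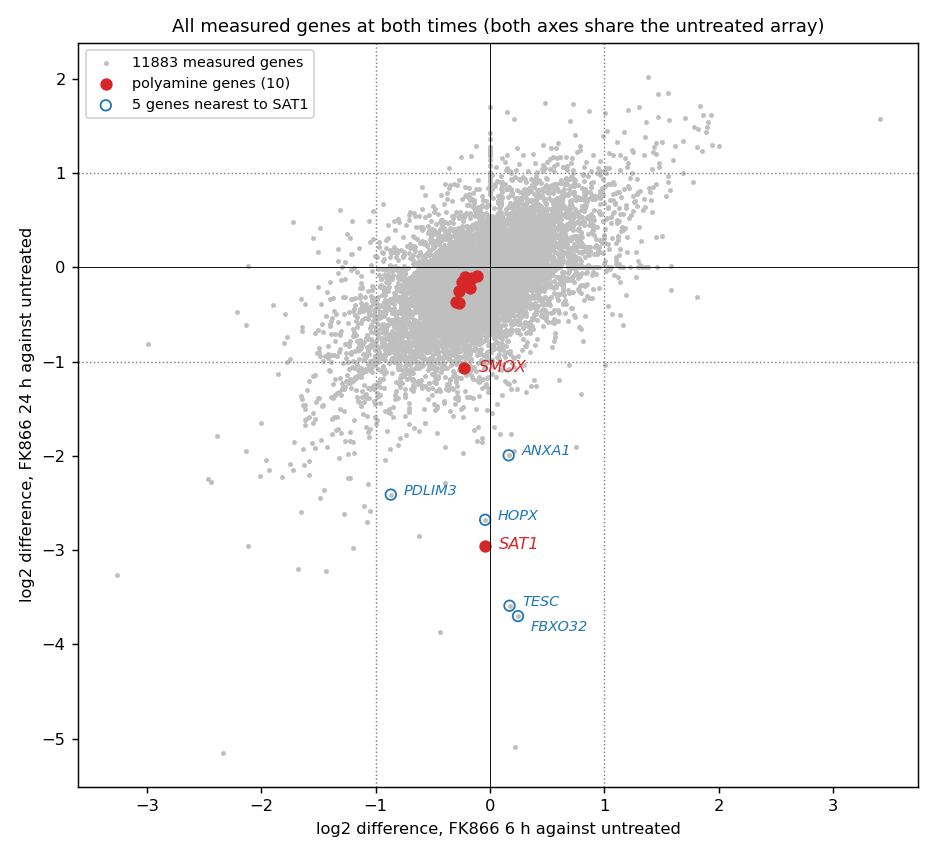
Log2 difference at 24 h against untreated (vertical axis) against that at 6 h (horizontal axis) for 11883 measured genes (grey), the 10 polyamine genes (filled) and the 5 genes nearest to SAT1 (open circles), with dotted lines at 2-fold. SAT1 lies at -0.05 and -2.95, SMOX at -0.23 and -1.07, and the other 8 within the bulk of genes. Both axes share the untreated array.

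Genes around the pathway were described from a list of 29, of which 24 were measured. At 6 h 0 of 24 were at least 2-fold higher or lower, where 1.44% of all measured genes were higher and 3.32% lower. At 24 h 2 of 24 were at least 2-fold lower than untreated and 0 higher, beside 4.17% and 1.14% of all measured genes. Between 24 h and 6 h 1 of 24 was lower and 1 higher, beside 1.84% and 1.09%. The list median was -0.20 at 6 h and -0.15 at 24 h, beside -0.10 and -0.13 for all measured genes. The 24 h lower genes were ARG2 and AZIN2, both dim.

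ARG2, the mitochondrial arginase that yields ornithine, had a signal of 61.4 untreated, 35.5 at 6 h and 17.5 at 24 h. It was 3.51-fold lower at 24 h than in untreated cells and 2.03-fold lower than at 6 h, but its second probe set gave -0.82 and -0.38, and its 24 h signal was next to the floor. OAT, which interconverts ornithine and glutamate semialdehyde, differed by -0.07 at 6 h and -0.25 at 24 h. GATM, which forms ornithine alongside the creatine precursor, differed by -0.10 and 0.00, but by -0.64 and -0.30 through its second probe set. The urea cycle enzyme ASL was the highest of the ornithine genes at 0.07 and 0.13. ARG1, OTC and ASS1 were not measured.

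AZIN2, a second antizyme inhibitor, had a signal of 46.4 untreated, 28.4 at 6 h and 14.8 at 24 h, and was at least 2.90-fold lower at 24 h because that signal lay under the floor. OAZ1, the widely expressed antizyme, had 13001, 12026 and 11901, with differences of -0.11 and -0.13. OAZ3, known as the antizyme of the testis, had 51.0, 28.4 and 57.1 and was 2.01-fold higher at 24 h than at 6 h, though its second probe set gave -0.31. Against untreated cells its probe sets gave 0.16 and -1.34 at 24 h. The -0.31 and -1.34 are bounds, since the second probe set had a 24 h signal of 10.1, under the floor. With a floor of 64, 0 of these regulators and 0 of the arginases were past 2-fold at 24 h. Among all measured genes 1.35% were lower and 0.30% higher in that setting. The signals of OAZ3, AZIN2 and ARG2 lay under 64 on every array, so that floor sets their differences to 0 and shows nothing about them.

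Of the genes for S-adenosylmethionine and its salvage, 0 of 8 measured were past 2-fold in the deposited scaling. Among all measured genes 3.32% were lower and 1.44% higher at 6 h, and 4.17% and 1.14% at 24 h. Nothing is read from a count of 0 among so few genes. MAT2A, the catalytic subunit that makes S-adenosylmethionine, had a signal of 3104 untreated, 2322 at 6 h and 3143 at 24 h, so its 6 h array was the low one at -0.42. Its regulatory subunit MAT2B differed by 0.20 and 0.00, and AHCY, which clears S-adenosylhomocysteine, by -0.21 and -0.22. MTAP recycles the methylthioadenosine left by SRM and SMS, and its brightest probe set had 149, 248 and 270.0, or 1.81-fold higher at 24 h than in untreated cells. That probe set was 2.02-fold higher after quantile normalization and 2.15-fold higher with the arrays scaled to a common median. Its other 4 kept probe sets gave from -0.04 to 0.39 at 24 h. Of the later salvage enzymes, MRI1 differed by -0.35 at 24 h, ENOPH1 by -0.24, ADI1 by -0.14 and APIP by 0.18. A further ADI1 probe set lay at -1.12.

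Spermidine is also used to make hypusine, a modified lysine of the translation factor EIF5A. EIF5A had a signal of 3674 untreated, 3244 at 6 h and 3031 at 24 h, a difference of -0.28 at 24 h. DHPS, which starts the modification, differed by 0.27 and -0.06, with its 6 h probe sets between -0.98 and 0.27. DOHH, which completes it, differed by 0.15 and -0.38, and EIF5A2 by -0.10 and -0.10. None of these 4 genes was past 2-fold by its brightest probe set. At 24 h 4.17% of all measured genes were lower and 1.14% higher, so nothing is read from this count.

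Among transporters, SLC3A2, the heavy chain of amino acid exchangers, had a signal of 423 untreated, 263 at 6 h and 271 at 24 h, and differed by -0.69 and -0.64. SLC7A1, a carrier of arginine and ornithine, differed by -0.41 and -0.19, with probe sets from -1.49 to -0.19 at 24 h. The -1.49 is a bound, from a probe set with a 24 h signal of 11.4, under the floor. ATP13A3, a polyamine transporting ATPase, differed by -0.25 and -0.16. Its lysosomal relative ATP13A2 had 28.3, 14.1 and 24.5, with the 6 h signal under the floor. SLC18B1, a vesicular polyamine carrier, was the highest of the 5 at 24 h with 0.06.

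**Figure D4:**
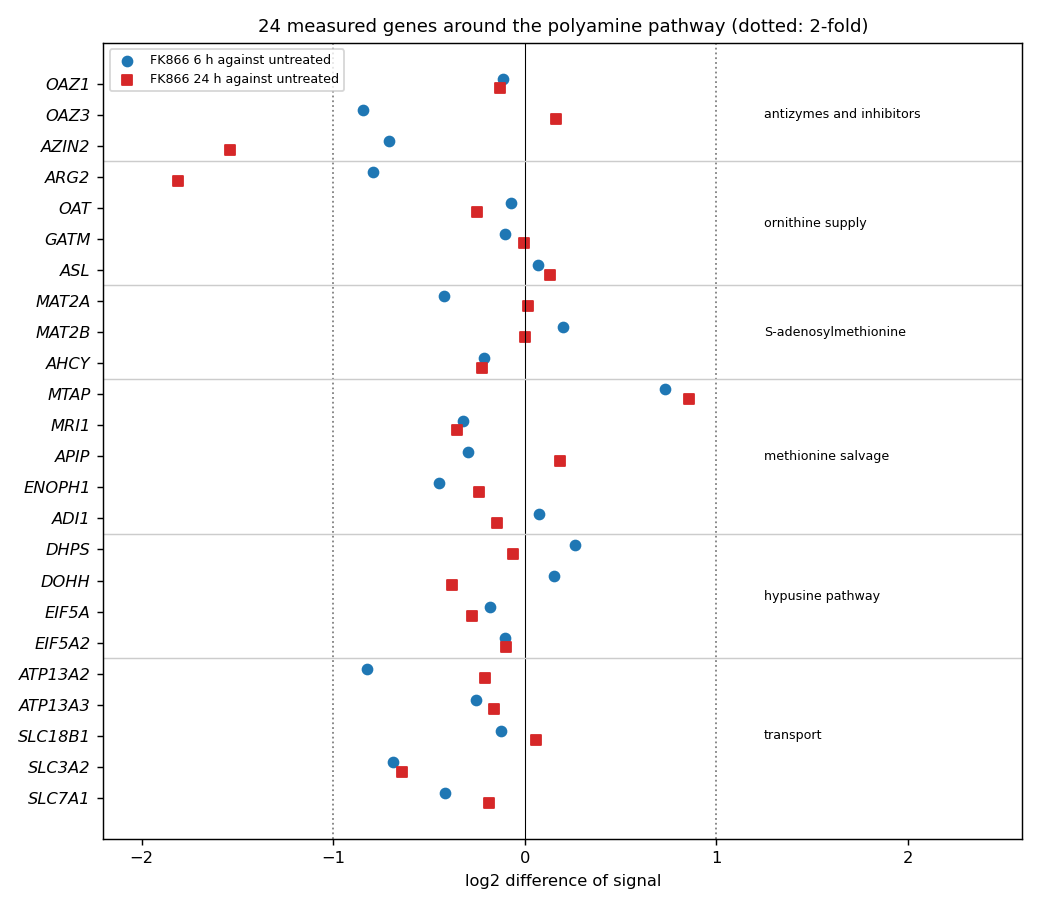
Log2 difference of signal (horizontal axis) at 6 h (circles) and 24 h (squares) against untreated cells for the 24 measured genes around the pathway (rows, grouped by role), with dotted lines at 2-fold. ARG2 at -1.81 and AZIN2 at -1.54 are the only points past 2-fold. The 24 h point of AZIN2 and the 6 h point of ATP13A2 rest on a treated signal under the floor of 16 and are bounds.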

How the data were processed

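The labels' protocols describe labelling 1 µg of total RNA with biotin by Affymetrix's standard method. The deposited values are linear intensities, 1 for each probe set and array. Probe summary, background correction and array scaling by the authors are not given in the sources used. GEO's platform annotation gave 1 symbol for 41097 of 54675 probe sets, several for 1801 and none for 11777, and 41043 of the first matched a RefSeq gene. 62 are control probe sets. Coordinates are given only for the promoter windows, on GRCh38.p14. No other gene coordinates are given, because the table names no build.

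Signals under 16 were set to 16 before log2, and 22601 kept probe sets with 1 symbol named 11883 genes. Genes are described by a size of at least 2-fold. The error measure is the pooled SD between kept probe sets of a gene, over 5967 genes with several. With 3 arrays, their number limits all precision. Calculations were tested on simulated data.

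Named genes are every member, the measured genes of the pathway list past 2-fold or highest and lowest in their group, the 5 genes nearest to SAT1, and NAMPT. Named outside this rule, after their values were seen, are other genes of the pathway list, measured or not, the RNA quality controls GAPDH and ACTB, and some cell type markers. Members and lists were chosen with earlier results of these data known. Alternatives were 3 scalings, 2 floors or offsets, 2 filters, the mean over probe sets, dropping probe sets open to cross-hybridisation and a 1.5-fold size. Python 3.11.15, numpy 2.4.6, pandas 2.3.3 and matplotlib 3.10.9 were used.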

Additional observations from a re-analysis of the deposited data

How the results depend on the processing

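No paired analysis was possible because each group has 1 array and no test was run. In all settings that gave it a value, SAT1 stayed between -3.14 and -2.71 at 24 h against untreated. Against 6 h it stayed between -2.99 and -2.81 in these settings. SAT1, SMS and SMOX had no value without the probe sets that may cross-hybridise. Such probe sets were told by their name suffix, and cross-hybridisation itself was not measured. SMOX had none with the filter at the 75th percentile. The number of polyamine genes at least 2-fold lower at 24 h against untreated, 2 in the main setting, was 1 after quantile normalization, with arrays scaled to a common median, with the median gene subtracted, with a floor of 64, with log2(signal + 32) and with the filter at the 75th percentile. Among all measured genes the share lower was 4.17% in the main setting and 1.33% to 2.82% in the others just named. The number of polyamine genes was 0 without probe sets that may cross-hybridise, a setting with 7 genes, beside 4.65% of all measured genes. Against 6 h the number, 1, was 0 in that setting and 2 at 1.5-fold, beside 1.93% and 7.92% of all measured genes. Leaving out SAT1, a choice made after seeing the data, gave 1 at 24 h against untreated and 0 against 6 h, and leaving out SMOX too gave 0 and 0.

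Of the 24 pathway genes, the number lower at 24 h against untreated, 2, was 0 with a floor of 64, with log2(signal + 32) and with the filter at the 75th percentile. It was 1 without probe sets that may cross-hybridise. Of all measured genes, 1.35%, 1.33%, 1.74% and 4.65% were lower in these settings, in this order. The number of pathway genes higher, 0, was 1 after quantile normalization, with arrays scaled to a common median and at 1.5-fold. This gene was MTAP. Of all measured genes, 2.42%, 2.49% and 5.03% were higher in these settings. At 6 h, 5 were lower and 1 higher at 1.5-fold, beside 11.4% and 5.71% of all measured genes. Against 6 h the 1 lower gene became 0 in 7 settings. They were, in order, quantile normalization, median gene subtracted, floor of 64 and log2(signal + 32). Next came the filter at the 75th percentile, the mean over probe sets, and dropping probe sets that may cross-hybridise. The 1 higher gene became 0 in the last 5 of these. Of all measured genes, 0.40% to 1.93% were lower in the 7 settings and 0.17% to 1.10% higher in the last 5. At 1.5-fold 2 pathway genes were lower and 2 higher, beside 7.92% and 5.34% of all measured genes. With the filter at the 75th percentile ARG2, AZIN2 and OAZ3 had no value, and a floor of 64 set their differences to 0. After quantile normalization and with the median gene subtracted, ARG2 was -0.99 against 6 h, beside -1.02 in the main setting. Without probe sets that may cross-hybridise OAZ3 had no value, and ARG2 was -0.38 against 6 h through its second probe set. Causes beyond these values were not tested.

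The median of the 10 genes turned from -0.22 to 0.01 at 6 h and from -0.24 to 0.01 at 24 h with arrays scaled to a common median. Signals near the floor limit what SMOX, AZIN2, ARG2 and OAZ3 can show.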
